A study of Homo sapiens with 4 samples.

Results

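The G1 and S phase cyclins and kinases described here are 10 genes: the D cyclins CCND1, CCND2 and CCND3 with their kinases CDK4 and CDK6, the E cyclins CCNE1 and CCNE2 and cyclin A2 (CCNA2) with their kinase CDK2, and CDC25A, a phosphatase that activates CDK2. They were chosen by gene name: every probe whose gene name in the scanner files was 1 of these symbols was taken, which gave 11 of 34127 gene probes and 10 of 27274 gene names. CCNE2 had 2 probes and the other 9 genes 1 probe each. The probes of CCND1, CCNA2 and CDK2 were spotted 10 times on every array and the other 8 probes once.

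Expression was measured on 4 one-colour Agilent arrays, 1 for each of 4 groups of cultured cells. Both lines come from human prostate cancers: LNCaP cells respond to androgen, and PC3 cells grow without it. Each line was measured without treatment (control) and after exposure to 10 µM atorvastatin (ATO), a statin that inhibits HMG-CoA reductase, the rate-limiting enzyme of the mevalonate pathway, for 24 h. All cultures were grown in RPMI medium with fetal bovine serum, and the labels name no vehicle for the control.

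In G1, D cyclins bind CDK4 or CDK6 and begin to phosphorylate the retinoblastoma protein RB, which otherwise holds E2F transcription factors inactive. Released E2F activates genes for S phase, among them those of the E cyclins, cyclin A2 and CDC25A, and cyclin E with CDK2 then completes the phosphorylation of RB and starts DNA replication. Inhibitors of the INK4 and CIP/KIP families bind these kinases or their complexes with cyclins. Many tumours enter S phase through high cyclin D or E or through loss of RB or of an inhibitor.

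The promoters are shown because most of these genes were lower together on the treated PC3 array. RefSeq promoter windows on GRCh38.p14, each with 250 bases before and 50 after a gene start, were in the table used here for 6 of the 10 genes, as 9 windows. CCND1, CCND2, CCNE2 and CDK2 had no window. The 4 genes with a single window are printed below, as the 180 bases that end 1 base before the start, with letters of the E2F and SP1 motifs in capitals. CDC25A lies at chr3:48188418-48188597 on the minus strand, CCNE1 at chr19:29811811-29811990 on the plus strand, CCNA2 at chr4:121823884-121824063 on the minus strand and CDK4 at chr12:57752311-57752490 on the minus strand.
CDC25A: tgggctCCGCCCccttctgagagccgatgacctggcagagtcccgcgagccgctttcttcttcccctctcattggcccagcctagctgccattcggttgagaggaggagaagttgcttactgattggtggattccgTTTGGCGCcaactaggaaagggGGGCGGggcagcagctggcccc
CCNE1: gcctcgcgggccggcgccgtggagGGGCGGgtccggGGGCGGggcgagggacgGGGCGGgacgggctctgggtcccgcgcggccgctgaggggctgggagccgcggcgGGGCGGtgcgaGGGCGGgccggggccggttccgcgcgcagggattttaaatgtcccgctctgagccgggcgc
CCNA2: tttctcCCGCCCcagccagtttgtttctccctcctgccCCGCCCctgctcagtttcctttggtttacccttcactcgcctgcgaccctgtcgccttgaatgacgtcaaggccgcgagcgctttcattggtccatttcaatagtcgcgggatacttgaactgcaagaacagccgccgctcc
CDK4: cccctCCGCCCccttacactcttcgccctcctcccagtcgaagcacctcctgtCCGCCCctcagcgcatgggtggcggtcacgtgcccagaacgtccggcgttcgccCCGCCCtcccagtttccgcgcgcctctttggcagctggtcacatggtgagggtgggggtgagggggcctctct

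The E2F search used TTTCCCGC, TTTGGCGC and TTTCGCGC, the CHR search (the cell cycle homology region) TTTGAA and TTCGAA, and the SP1 search GGGCGG, each on both strands and without overlap between motifs in these windows. E2F letters were in 1 of the 9 windows, that of CDC25A, where TTTGGCGC began at base -44 counted back from the start, and in 2.74% of all 35116 windows of the table. Exact CHR letters were in 0 of the 9 windows and in 16.4% of all windows. Near matches, such as CTTGAA in the printed CCNA2 promoter, were not counted. For CHR and E2F alike, a window without the exact letters may still hold a site. SP1 letters were in 7 of the 9 windows, with 7 matches in that of CCNE1, and in 45.0% of all windows.

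No spot was saturated, 48.5 to 52.9% of gene spots per array were well above background by the scanner software's call, and all 4 arrays lay on 1 slide scanned once. With 1 array per group there is no test within a line, and each ratio has no replicate check. Its error is given from the software's error of the processed intensities, about 0.20 to 0.25 on the log2 scale, which covers the measurement of the spot only. For probes spotted 10 times it is the mean of the copies' errors, not the error of their average. Ratios of the copies of probes spotted 10 times, over probes of 100 to 20000 intensity units, had a median SD of 0.11 on the log2 scale in LNCaP and 0.12 in PC3. Local background was above the array's limit (its median plus 3 scaled median absolute deviations) at 0.35% of spots for the LNCaP control, 14.1% for LNCaP with ATO, 8.35% for the PC3 control and 15.3% for PC3 with ATO. The labelled lines matched their markers: the LNCaP markers KLK3, KLK2 and TMPRSS2 had log2 differences of -10.55 to -4.13 in untreated PC3 against untreated LNCaP, and 3 of 3 PC3 markers had differences of 7.24 to 8.58. Those of TMPRSS2 (-4.13) and VIM (7.24) were measured in both lines. KLK3, KLK2, CAV1 and CD44 gave bounds, since each was not well above background in 1 of the lines. Of 6 markers of other cell types, 2 to 3 were well above background per array, and their summed intensity was 477.4 units in the LNCaP control, 322.6 in LNCaP with ATO, 1122.2 in the PC3 control and 1792.8 in PC3 with ATO. KRT5 and COL3A1 were not well above background on any array, and COL1A1 and CD68 were on all 4. PECAM1 was measured in PC3 only and was 2.73-fold higher with ATO, CD68 was 1.53-fold higher there, and PTPRC was well above background in the LNCaP control only. The part of these markers in the members' ratios was not tested.

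With ATO none of the measured members was 1.5-fold lower in LNCaP, whereas in PC3 the E cyclins, CCNA2, CDK2, CDK4, CDK6 and CDC25A were all at least 1.5-fold lower on the treated array. Of the 9 genes measured in PC3, 7 were at least 1.5-fold lower, 0 were higher, and all 9 lay below 0, with a median log2 ratio of -0.76. Over all 13815 genes with a value in PC3 the median was -0.01, 18.5% were at least 1.5-fold different in either direction and 10.3% at least 1.5-fold lower. Of the 8 genes measured in LNCaP, 0 were past 1.5-fold, against 4.75% of 13739 genes in either direction and 1.99% lower. In the upper part of the array alone 0 of 5 were, against 1.41% of 7144 genes. All 8 lay below 0 in LNCaP over the whole array, at a median of -0.17 against 0.00 over all genes, of which 45.4% lay below 0. Scaling to the spike-in probes in place of the array's 75th percentile moved the median of all genes in LNCaP to 0.19, and then 3 of the 8 lay below 0. The ratio for a bulk culture does not separate less RNA per cell from fewer cells in the phase that expresses the gene, and these cannot be told apart here.

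**Figure D1:**
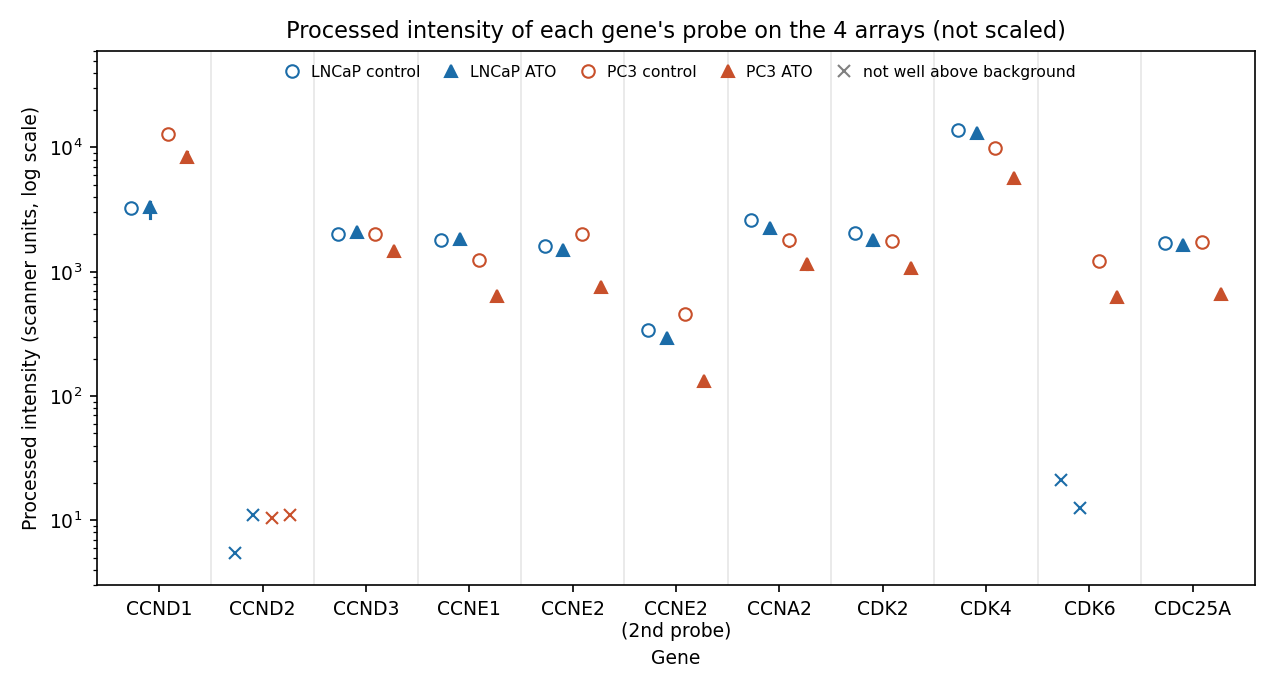
Processed intensity (scanner units, log scale, before scaling between arrays) of each probe on the arrays of both lines, control (circles) and ATO (triangles); vertical lines span the copies of probes spotted 10 times and crosses mark values not well above background. For every gene measured in PC3 the treated array is below its control. The LNCaP pairs well above background lie closer together than the PC3 pairs of the same probe. Only values of the same gene are comparable.

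Among the D cyclins, CCND1 was the member that differed most between the untreated lines apart from CDK6. Its processed intensity, averaged over 10 copies, was 3281 units in the LNCaP control, 3327 in LNCaP with ATO, 12820 in the PC3 control and 8311 in PC3 with ATO. Both PC3 arrays were above both LNCaP arrays. After scaling each array to its 75th percentile, untreated PC3 was 3.30-fold above untreated LNCaP, a log2 difference of 1.72 with copies between 1.65 and 1.80. ATO gave a log2 ratio of -0.08 ± 0.20 in LNCaP and -0.58 ± 0.20 in PC3, the latter 1.49-fold and so just short of 1.5-fold. All 10 copies in PC3 were below 0, between -0.69 and -0.44, and 5 of 10 were past 1.5-fold. Quantile normalization (-0.60) and the spike-in scale (-0.67) put it past 1.5-fold. In LNCaP 9 of 10 copies were below 0, and 1 copy in the lower part of the array, at -0.44, stood apart from the rest, of which the next was at -0.10. The probe lies at chr11:69177414-69177473 on the plus strand in hg18, the build of the file headers.

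CCND3 differed little between the untreated lines, by -0.23 ± 0.20 on the log2 scale. Its intensity was 2011 units in the LNCaP control, 2074 in LNCaP with ATO, 2024 in the PC3 control and 1461 in PC3 with ATO, so the treated PC3 array was the lowest and the other three lay close together. The log2 ratio with ATO was -0.06 ± 0.20 in LNCaP and -0.42 ± 0.21, or 1.34-fold lower, in PC3. On the LNCaP ATO array its single spot had a local background of 271 units against 113 on the control array, and the part of this in the LNCaP ratio was not tested. Correction by normexp, which starts from the mean signal, gave -0.71 in PC3, past 1.5-fold.

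CCND2 was not well above background on any array. Its values were 5.505, 10.95, 10.51 and 11.0 units in the order of LNCaP control and ATO, then PC3 control and ATO. The lowest gene signal called well above background was between 27.4 and 54.7 units on the 4 arrays, so no ratio is given for it.

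CDK4, the kinase partner of the D cyclins, had intensities of 13880 units in the LNCaP control, 13190 in LNCaP with ATO, 9948 in the PC3 control and 5696 in PC3 with ATO. The 2 PC3 arrays were the lowest, and treated PC3 was below its control by more than the LNCaP pair differed. The log2 ratio with ATO was -0.17 ± 0.20 in LNCaP and -0.76 ± 0.20, or 1.69-fold lower, in PC3. Untreated PC3 was 1.65-fold below untreated LNCaP, short of the 2-fold used for that comparison. On the 50th percentile scale the ratio in PC3 was -0.56, short of 1.5-fold. Its probe lies at chr12:56428530-56428589 on the minus strand in hg18.

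CDK6, the other D cyclin kinase, separated the lines more than any other member. It was not well above background in LNCaP, at 21.3 units in the control and 12.61 with ATO, and it was well above background in PC3, at 1227 units in the control and 629.9 with ATO. The untreated difference is a bound, set against the lowest signal called well above background on the LNCaP array: at least 37.9-fold higher in PC3 (5.24 on the log2 scale). With ATO the level in PC3 was 1.88-fold lower, a log2 ratio of -0.91 ± 0.21, and no ratio is given in LNCaP. The single spot had a local background of 189 units on the PC3 ATO array against 87.0 on the control, and the part of this in the ratio was not tested. With normexp correction the bound between the lines was 3.42 on the log2 scale.

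Between the untreated lines 2 of 9 members, CCND1 and CDK6, were at least 2-fold apart, both higher in PC3, beside 39.6% of 15237 genes past 2-fold in either direction. The other 7 lay between -0.78 and 0.07 on the log2 scale. CCNA2, CCNE1 and CDK4 were the lowest of them in PC3, at -0.78, -0.76 and -0.72. CDK2 stood at -0.47, CCND3 at -0.23, CDC25A at -0.21 and CCNE2 at 0.07. With the array's 50th percentile as the scale, which moved the median of all genes to -0.49, CCNE1, CCNA2 and CDK4 passed 2-fold as well, at -1.20, -1.22 and -1.17, so 5 of 9 did. On that scale 45.9% of all genes were past 2-fold in either direction, so this count is not read as particular to the members. The direction of CCND3, CDC25A, CCNE2 and CDK2 between the lines flipped with the scale: the spike-in probes gave 0.28 for CCND3, 0.31 for CDC25A and 0.05 for CDK2, and the 50th percentile gave -0.37 for CCNE2.

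Of the cyclins, the E cyclins had the lowest ratios in PC3. CCNE1 had 1790 units in the LNCaP control, 1836 in LNCaP with ATO, 1251 in the PC3 control and 644.1 in PC3 with ATO. Treated PC3 was the lowest of the 4 arrays, and the LNCaP pair was nearly level. The log2 ratio was -0.06 ± 0.20 in LNCaP and -0.91 ± 0.21, or 1.88-fold lower, in PC3. The probe lies at chr19:35006946-35007005 on the plus strand in hg18.

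CCNE2 was read by 2 probes. The brighter one gave 1609 units in the LNCaP control, 1501 in LNCaP with ATO, 2004 in the PC3 control and 755.9 in PC3 with ATO. The dimmer one gave 341.5, 290.5, 459.9 and 133.3 units in the same order. On both probes the PC3 control was the highest array and treated PC3 the lowest. The log2 ratio with ATO in PC3 was -1.36 ± 0.21 on the brighter probe, 2.56-fold lower, and -1.74 ± 0.25 on the dimmer one, 3.34-fold lower. In LNCaP the probes gave -0.20 ± 0.20 and -0.33 ± 0.22. The probes share the RNA and the arrays and are no replicates of the treatment.

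CDK2, which pairs with cyclins E and A, was measured on 10 copies. Its mean intensity was 2066 units in the LNCaP control, 1786 in LNCaP with ATO, 1767 in the PC3 control and 1071 in PC3 with ATO. Copies ranged from 1011 to 1115 units on the treated PC3 array and from 1663 to 1923 on its control, with no overlap. The log2 ratio in PC3 was -0.67 ± 0.21, 1.60-fold lower, and all 10 copies were past 1.5-fold, between -0.74 and -0.63 (SD 0.03). With the 50th percentile as the scale it was -0.48, short of 1.5-fold. In LNCaP it was -0.31 ± 0.20, with all 10 copies below 0, between -0.43 and -0.16 (SD 0.08), and 0 past 1.5-fold. The treated copies in LNCaP, 1638 to 1904 units, lay below the control copies, 1962 to 2219 units. These units are before scaling, and on the spike-in scale the LNCaP ratio was -0.11. Copies share the RNA and the array, and the share of all probes spotted 10 times without overlap was not computed.

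CCNA2, the S phase cyclin, also had 10 copies, of which 1 was flagged as an outlier spot on 3 arrays and left out there. Its mean intensity was 2610 units in the LNCaP control, 2264 in LNCaP with ATO, 1803 in the PC3 control and 1146 in PC3 with ATO. The treated array was below its control in both lines, without overlap of the copies before scaling. Copies share the RNA and the array, and the share of all probes spotted 10 times without such overlap was not computed. In LNCaP the copies ran from 2492 to 2804 units in the control and from 2112 to 2359 with ATO, and in PC3 from 1613 to 1928 and from 1050 to 1244. The log2 ratio was -0.31 ± 0.20 in LNCaP and -0.61 ± 0.21, or 1.52-fold lower, in PC3, where it was the member just inside 1.5-fold. Of its 9 copy ratios in PC3, 5 were past 1.5-fold, and they ranged from -0.80 to -0.40 (SD 0.13). Cyclic loess (-0.58) and the 50th percentile (-0.41) put it short of 1.5-fold. In LNCaP the spike-in scale gave -0.11.

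**Figure D2:**
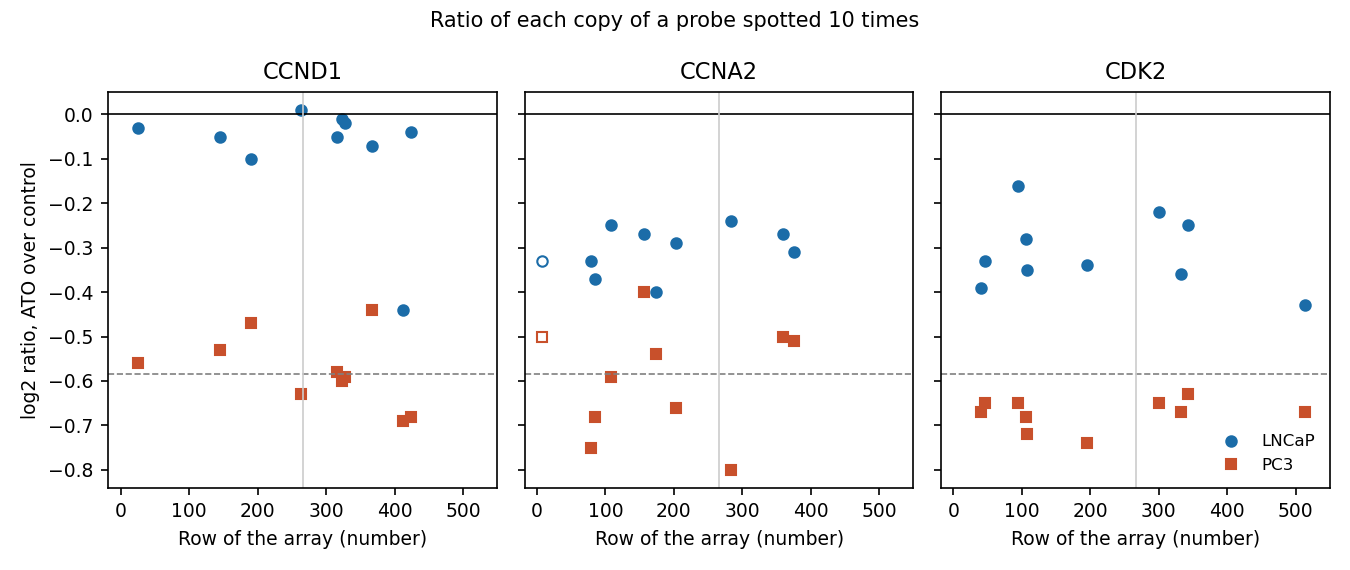
The log2 ratio (ATO over control, after scaling) of each copy of the CCND1, CCNA2 and CDK2 probes against the copy's row on the array, for LNCaP (circles) and PC3 (squares); open symbols are copies flagged on either array, the dashed line is 1.5-fold lower and the vertical line divides the upper from the lower part. All PC3 copies lie below 0, and those of CDK2 (SD 0.03) spread less than those of CCNA2 (SD 0.13).

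CDC25A, the phosphatase that removes inhibitory phosphates from CDK2, had the same ratio in PC3 as the brighter CCNE2 probe. Its intensity was 1702 units in the LNCaP control, 1635 in LNCaP with ATO, 1746 in the PC3 control and 657.7 in PC3 with ATO. The treated PC3 array stood apart from the other three, which were close. The log2 ratio was -0.16 ± 0.20 in LNCaP and -1.36 ± 0.21, or 2.57-fold lower, in PC3. Of all genes with a value in PC3, 1.95% had a lower ratio than CDC25A and 1.97% a lower ratio than CCNE2. The probe lies at chr3:48174128-48174187 on the minus strand in hg18. CDC25A was the gene with E2F letters in the promoter printed above. CCNE2, CCND1, CCND2 and CDK2 had no promoter window and were not searched. The search took exact letters only, so the other printed promoters may hold E2F sites that it misses. The part of E2F in these ratios was not tested.

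Ordered by ratio in PC3, the members ran from CCNE2 and CDC25A at -1.36 through CCNE1 and CDK6 at -0.91, CDK4 at -0.76, CDK2 at -0.67, CCNA2 at -0.61 and CCND1 at -0.58 to CCND3 at -0.42. Of the 8 steps between neighbours in that order, 1 was larger than the combined error of the ratios, the step of 0.45 from CDC25A to CCNE1. All 9 members lay more than 1 error below 0 in PC3, against 2 of 8, CCNA2 and CDK2, in LNCaP. The share of all genes more than 1 error below 0 was not computed, but 16.1% in PC3 had a lower ratio than CCND3. On the spike-in scale CCNA2 and CDK2 were both at -0.11 in LNCaP, within 1 error. None of the 7 steps between neighbours in LNCaP exceeded its error.

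**Figure D3:**
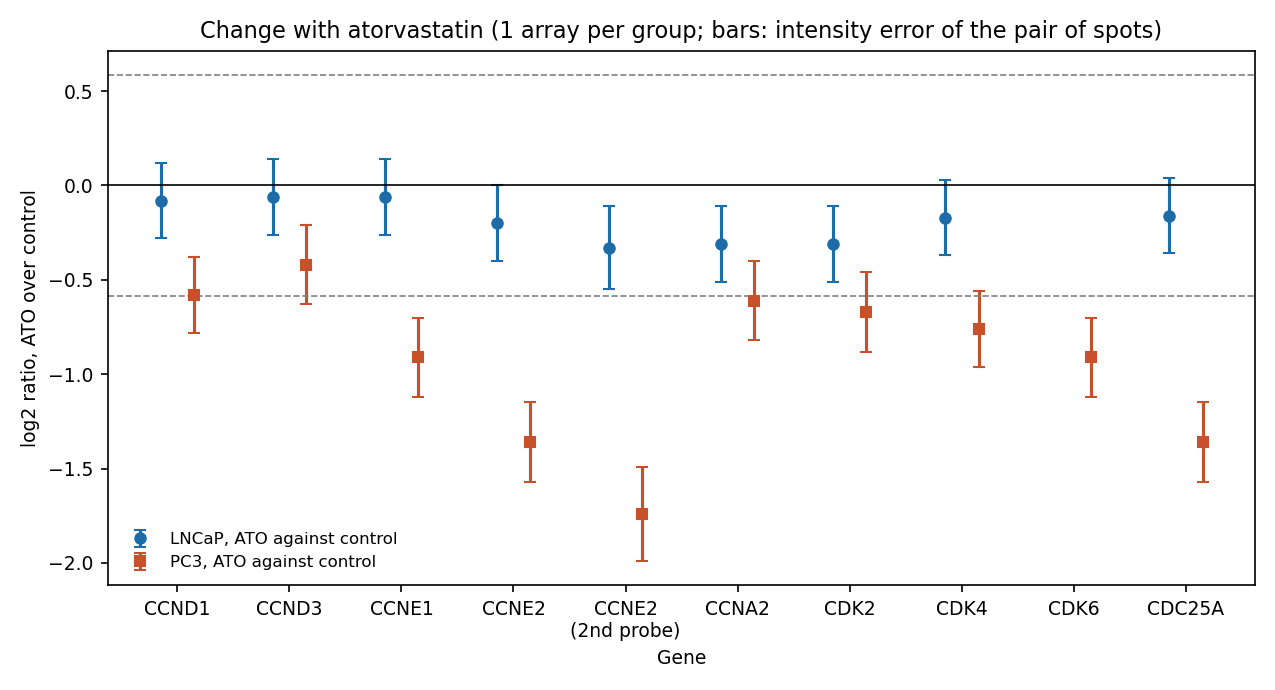
The log2 ratio of ATO over control for each probe in LNCaP (circles) and PC3 (squares), 1 array per group, with the error of the pair of intensities as bars and 1.5-fold as dashed lines. The PC3 ratios run from -0.42 to -1.74 and each lies below the LNCaP ratio of the same probe, where one could be measured.

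The difference between the lines could be formed for 8 members. The ratio in PC3 was lower than that in LNCaP for all 8, by a median of -0.54 on the log2 scale. No share over all genes was computed for this difference, so the count is not read as particular to the members. Over all genes, 18.5% in PC3 and 4.75% in LNCaP were at least 1.5-fold different with ATO. CDC25A had a difference of -1.20, CCNE2 -1.16, CCNE1 -0.85 and CDK4 -0.58, each more than 2 combined errors. CCND1 had -0.50, CCND3 -0.37, CDK2 -0.36 and CCNA2 -0.30, each between 1 and 2 errors. On the 50th percentile scale CCND3 (-0.16), CDK2 (-0.15) and CCNA2 (-0.09) were within 1 error, CCND1 (-0.28) was at about 1 error and CDK4 (-0.37) was under 2, while CDC25A, CCNE2 and CCNE1 were at -1.0, -0.94 and -0.63. With normexp CCNA2 (-0.26) was within 1 error. These differences have no residual degree of freedom over samples and were not tested.

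Taking the lines as replicates of the treatment gave the sole test the design allows, a limma fit with line as a block and 1 residual degree of freedom. At an adjusted p under 0.05 it called 0 of 11902 genes (0.0%), with 532 genes at an unadjusted p under 0.05. Of the 8 members tested 0 were called, each with an adjusted p of 0.762. CDK2 had a mean log2 ratio over both lines of -0.49 ± 0.16 (SE), and with CCNA2, at -0.46 ± 0.15, it was 1 of 2 members under 0.05 before adjustment (limma, unadjusted p = 0.0436 and 0.0455). CCNE2 and CDC25A, which differed most between the lines, had means of -0.78 ± 0.33 and -0.76 ± 0.34.

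The genes around these cyclins were taken from lists of the same pathway. Among 7 CDK inhibitors, 4 were at least 1.5-fold higher in PC3 and 0 lower, beside 8.2% of all genes that were higher, and the list's median was 0.59. CDKN2B (p15, an inhibitor of CDK4 and CDK6) had a log2 ratio of 2.39 in PC3, from a control signal of 53.06 units close to the lowest signal called well above background there, 52.1 units, and the ratio was 1.32 with normexp. CDKN1A (p21) had 1.31 and CDKN1C (p57) 1.15. In LNCaP 0 of the 7 were past 1.5-fold, beside 4.75% of all genes in either direction. The ratios of CDKN1A and CDKN1C there were 0.03 and 0.37.

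Of 13 genes of the RB family, E2F and its DP partners, 4 were at least 1.5-fold lower in PC3, beside 10.3% of all genes, and 0 in LNCaP, beside 1.99%, with medians of -0.39 and -0.13. E2F8, a repressor among the E2F factors, had -1.54 in PC3 and -0.09 in LNCaP, and E2F2, an activator, -0.99 and -0.26. TFDP1, the DP1 partner, had -1.22 in PC3 on its brighter probe and -0.56, short of 1.5-fold, on the other. Among 14 S phase genes that E2F is known to control, 10 of the 13 with a value in PC3 were at least 1.5-fold lower, at a median of -0.87, and 0 of 14 in LNCaP, at a median of -0.29. The replication licensing genes MCM2, CDT1 and MCM3 had -1.32, -1.16 and -1.07 in PC3 and -0.43, -0.32 and -0.17 in LNCaP.

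Of 4 mitotic cyclins and CDK1 with a value, 0 were past 1.5-fold in either line. This stands beside 18.5% of all genes in PC3 and 4.75% in LNCaP, so it is not a result about the list. The list's median was -0.35 in PC3 and -0.21 in LNCaP. In the list of CDK activation (the CDK-activating kinase, further CDC25 phosphatases and the opposing kinases) 1 of 6 was lower in PC3, at a median of -0.19, and this share is read beside the 10.3% of all genes that were lower. In the list of cyclin and inhibitor turnover 1 of 6 was lower in PC3, SKP2, which directs the inhibitor p27 to degradation, at -1.24, and it stood at -0.54 in LNCaP. With 1 gene past the threshold, neither list's count is a result about the list. Of 12 other cyclins and CDKs with a value in PC3, 2 were higher and 1 lower, beside 8.2% and 10.3% of all genes, and CCNG2, a cyclin linked to arrest, had 1.39 in PC3 against 0.24 in LNCaP.

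**Figure D4:**
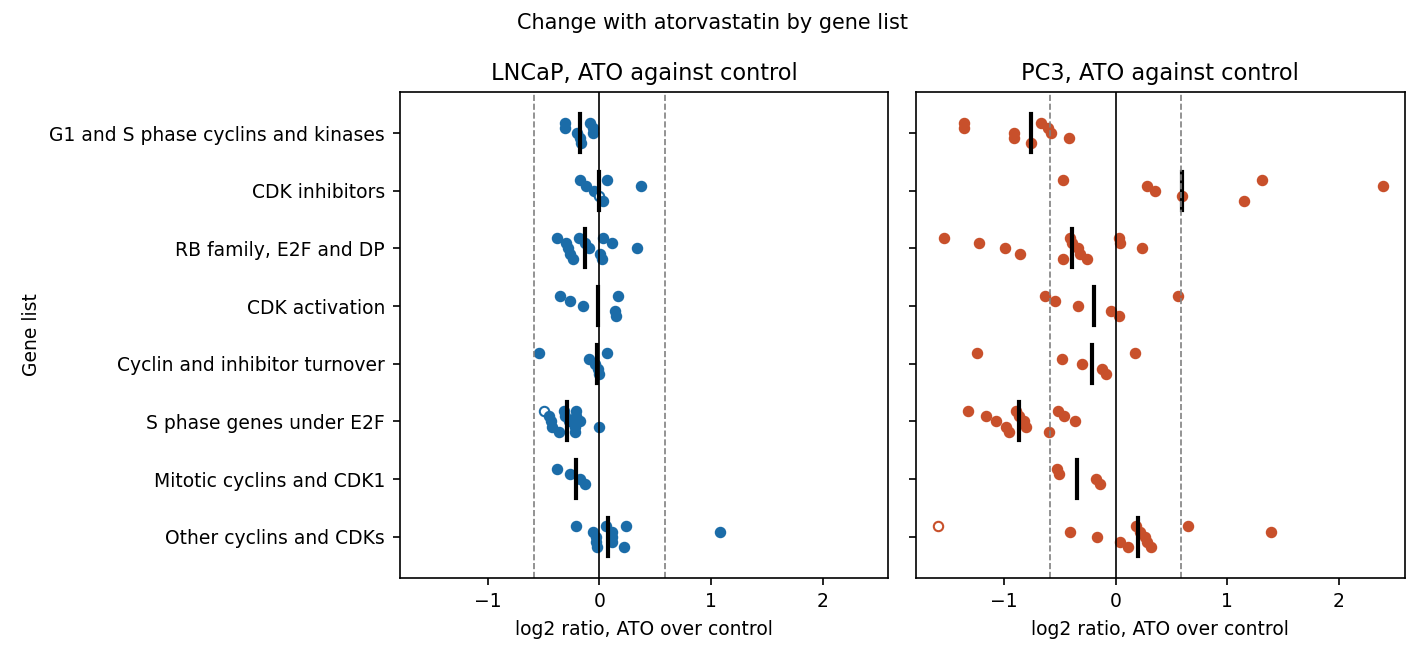
The log2 ratio of ATO over control for every gene with a value in 8 lists, for LNCaP and PC3; filled points are measured on both arrays, open points are bounds, black bars are list medians and dashed lines mark 1.5-fold. In PC3 the G1 and S phase cyclins and kinases (median -0.76) and the S phase genes (median -0.87) lie to the left and the CDK inhibitors (median 0.59) to the right, while in LNCaP the medians run from -0.29 to 0.08.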

How the data were processed

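RNA was hybridised to Agilent 4x44K arrays by a service laboratory, per the methods, and per the file headers the intensities were extracted with Feature Extraction 9.5.3.1; the headers give hg18 for probe positions. The deposited scanner files hold, per spot, processed intensity (background-subtracted, linear), its error, the mean and local background intensities, and calls of outlier, saturated and well above background. The deposited table of the authors' processed values holds linear ratios of intensity to the array's 75th percentile and was used as an alternative; the methods name GeneSpring for the analysis.

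Copies of a probe were averaged as log2 of the deposited intensity, without outlier spots, and each array was scaled to its 75th percentile over probes. A gene is shown by its brightest probe. A probe well above background on 1 array of a comparison gives a bound. Counts use 1.5-fold for treatment and 2-fold between lines. limma 3.58.1 (R 4.3.3) fitted treatment with line as a block, with Benjamini-Hochberg adjustment over all genes tested. The steps were tested on simulated data. Alternatives were other scalings, normexp background correction (offset 50), the deposited table, other probe, outlier, filter and fold rules, and leaving out spots with bright local background. The upper part of the array alone was added after seeing the data. Members and lists were chosen with earlier results of these data known. All members were named, and of the other lists up to 12 genes with the largest measured change past 1.5-fold. The labels name 1 culture per group, so the number of arrays limits the precision. The results of 2 cell line markers are not reported here.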

Additional observations from a re-analysis of the deposited data

Results flagged for a closer look

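CCNT2, a cyclin of the transcription elongation kinase complex that pairs with CDK9, moved in opposite directions in the lines. Its log2 ratio with ATO was 1.08 in LNCaP, and in PC3 it was a bound of -1.59, since the probe was well above background on the PC3 control array only. Its single spot lay in row 532, the last row of the array. With normexp correction the values were 0.20 and -0.88. The difference between the lines was not tested.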

How the results depend on the processing

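All 9 members measured in PC3 stayed below 0 under every alternative that gave them a value. The 7 of 9 past 1.5-fold in PC3, all lower, became 4 with the 50th percentile, which moved the median of all genes there to 0.19. At a 2-fold threshold 2 were left. The other alternatives gave 5 to 8, the lowest in the upper part of the array, where 6 members had a value. The share of all genes that were lower in PC3 was 6.59% with the 50th percentile and 3.79% at 2-fold. Under the other alternatives it was 6.63% to 13.3%. In LNCaP 0 were past 1.5-fold except without the filter on dim probes, which gave 2 of 10, CCND2 and CDK6, both not well above background. Without that filter 42.9% of all genes in LNCaP were past 1.5-fold, so this count is not a result about the members. Between the untreated lines 2 became 5 with the 50th percentile and 1 at 4-fold, beside 45.9% and 16.1% of all genes. limma called 0 genes, except 5 with the 50th percentile and 114 with the spike-in probes, where the prior degrees of freedom were infinite; no member was called under any alternative. The median difference between the lines, -0.54, ran from -0.83 (spike-in probes) to -0.33 (50th percentile), with normexp at -0.78. Of 273 member values under alternatives, 250 moved by no more than their error and 0 changed the direction of a ratio past the threshold. Some of these values could not move, so the 250 overstates the stability. Examples are the median over probes for a gene with 1 probe, and leaving out bright local backgrounds, which only removes genes. Over all genes, LNCaP calls numbered 653, against 354 with normexp, 365 without bright local backgrounds, 11684 without the filter and 101 of 7144 genes (1.41%) in the upper part of the array. PC3 calls were 1133 higher and 1419 lower, against 2154 and 910 with the 50th percentile and 818 and 1837 with the spike-in probes. The limma fit pairs ATO with control within a line; no other pairing was possible with 1 array per group. Signals near background limit CCND2 in both lines and CDK6 in LNCaP.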
